A study of Mus musculus with 8 samples.

Results

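Transcripts of Hes1, Hey1, Hey2, Heyl and Nrarp, 5 genes that Notch signalling switches on, were followed in single-cell RNA sequencing of bone stromal cells from mice with and without a healing fracture. The members were taken by name from the gene list of the count tables, and all 5 were found among the 28956 genes listed and among the 26357 genes seen in at least 3 cells. All mice were C57BL/6 females aged 12 weeks at collection, and blood cells were depleted from the suspensions by lineage, CD45 and CD117 antibodies. In the Fracture group the left leg had been broken by bending at 10 weeks of age under ketamine and xylazine. The break was stabilised with a nail inside the marrow cavity, carprofen was given against pain, and the bone was collected on day 14. Control mice were unfractured and wild-type. Each group held 2 preparations of 2 sequencing libraries each, and the libraries of a preparation were summed, so that n = 2 per group throughout. The study calls its replicates independent, but the labels do not tell whether the preparations came from separate animals. All p-values therefore measure the spread between these preparations, which may be technical.

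Notch is a receptor family that is cut when a Delta-like or Jagged ligand on a neighbouring cell binds it. The freed intracellular part enters the nucleus, joins the DNA-binding protein RBPJ and a Mastermind co-activator, and turns on target genes. Hes1 and the Hey genes encode basic helix-loop-helix proteins that repress transcription, and Nrarp encodes a small ankyrin-repeat protein that dampens Notch signalling as negative feedback. In vessels Notch restrains sprouting and sets arterial fate, in mural cells it supports smooth muscle maturation, and in bone marrow stroma it restrains the formation of osteoblasts. Hes1 is also known to respond to stimuli other than Notch.

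In the mouse reference annotation of build GRCm38, all 5 are protein-coding genes on separate chromosomes. Hes1 lies at chr16:30064384-30067796 on the plus strand, Hey1 at chr3:8663359-8667256 on the minus strand, Hey2 at chr10:30832359-30842801 on the minus strand, Heyl at chr4:123233556-123249875 on the plus strand and Nrarp at chr2:25180758-25183339 on the plus strand. RefSeq promoter windows of build GRCm38.p6, 250 bases before to 10 bases after the annotated start, were at hand for 2 of the 5 members, Hey2 and Nrarp. They are shown because RBPJ is the factor through which Notch reaches its targets, with capitals marking matches to CGTGGGAA, the letters RBPJ prefers, on either strand.
Hey2, chr10:30842774-30843033, minus strand: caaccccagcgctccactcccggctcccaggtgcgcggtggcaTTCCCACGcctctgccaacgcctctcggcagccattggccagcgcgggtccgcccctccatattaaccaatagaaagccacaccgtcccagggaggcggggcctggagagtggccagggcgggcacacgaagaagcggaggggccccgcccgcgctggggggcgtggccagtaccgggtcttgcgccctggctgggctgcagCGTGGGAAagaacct
Nrarp, chr2:25180508-25180767, plus strand: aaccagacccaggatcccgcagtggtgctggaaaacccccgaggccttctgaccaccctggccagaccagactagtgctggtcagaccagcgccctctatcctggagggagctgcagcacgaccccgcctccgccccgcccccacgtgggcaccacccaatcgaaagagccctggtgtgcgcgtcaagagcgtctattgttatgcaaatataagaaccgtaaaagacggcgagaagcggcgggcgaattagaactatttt
The Hey2 window held CGTGGGAA 2 times, on the opposite strand at bases 44 to 51 and on the gene's own strand at bases 246 to 253. These letters occur in 215 of the 32851 mouse windows of the same length (0.654%), and the shorter core TGGGAA, which lies within them, in 7363 windows (22.4%). The Nrarp window held neither form, which says only that these letters are not in it.

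The 8 libraries held 56543151 to 89126291 unique molecular identifiers (UMIs, 1 per captured transcript) each, and 45328 of 48903 barcodes were kept as cells. No more than 23 barcodes were shared by any pair of libraries. Cells were clustered without the members and named only from marker genes, with the ending -like marking a name that rests on markers. The median cell carried 7711 UMIs in Control and 11351 UMIs in Fracture, where the deposited tables hold no barcode under 1929 UMIs, while those of Control reach down to 1 or 3 UMIs. Erythroid-like cells, a blood lineage that remained after the depletion, served as the gauge of free RNA, and in them the summed chondrocyte markers were 934 and 164 CPM (UMIs of a gene per 1000000 UMIs of the class) in Control and 23585 and 25044 CPM in Fracture, with 9 of 9 markers above both Control values. Levels are given as plain CPM where classes are compared, and as CPM normalised for composition where Fracture is compared with Control within a class. A gene was called when its p-value from edgeR's quasi-likelihood test, adjusted over all genes tested in that class, was under 0.05. Over 6 cell classes the members gave 30 class and gene pairs, of which 8 were called (2 higher and 6 lower in Fracture), 20 were not called and 2 were not tested for low counts. The 8 calls were 28.6% of the 28 pairs tested, against 31.7% called over all genes tested in the same classes, so the members were called about as often as genes in general.

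Each member had its own place among the Control classes, seen in the plot of plain CPM by class. Hes1 was present in all 6 classes, at 343 ± 37.1 CPM (mean ± SD, n = 2 here and below) in smooth muscle-like, 226 ± 7.92 CPM in endothelial-like and 151 ± 12.0 CPM in BMSC-like cells (bone mesenchymal stromal cells), followed by fibroblast-like cells at 128 ± 21.3 CPM, chondrocyte-like cells at 54.0 ± 0.0798 CPM and osteoblast-like cells at 51.1 ± 11.3 CPM. In this order fibroblast-like cells overlapped with BMSC-like cells, and osteoblast-like with chondrocyte-like cells. Hey1 stood at 63.2 ± 24.2 CPM in endothelial-like, 34.6 ± 11.5 CPM in BMSC-like and 17.6 ± 2.61 CPM in smooth muscle-like cells, with no overlap between neighbours, and at no more than 5.20 CPM on average elsewhere. Hey2 was highest in smooth muscle-like cells, where it measured 96.3 ± 20.5 CPM against at most 4.36 ± 2.00 CPM in any other class. Heyl reached 154 ± 27.9 CPM in smooth muscle-like and 133 ± 18.7 CPM in BMSC-like cells, which overlapped, and 14.4 ± 14.4 CPM in fibroblast-like cells. Nrarp was found at 119.6 ± 18.7 CPM in endothelial-like and 102 ± 21.7 CPM in smooth muscle-like cells, again overlapping, and at no more than 1.20 CPM on average in the other 4 classes. In erythroid-like cells the plain CPM of Nrarp was 7.84 and 7.28 in Control and 3.59 and 1.93 in Fracture, above its Control level in those 4 classes, and the source of these UMIs was not tested.

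**Figure D1:**
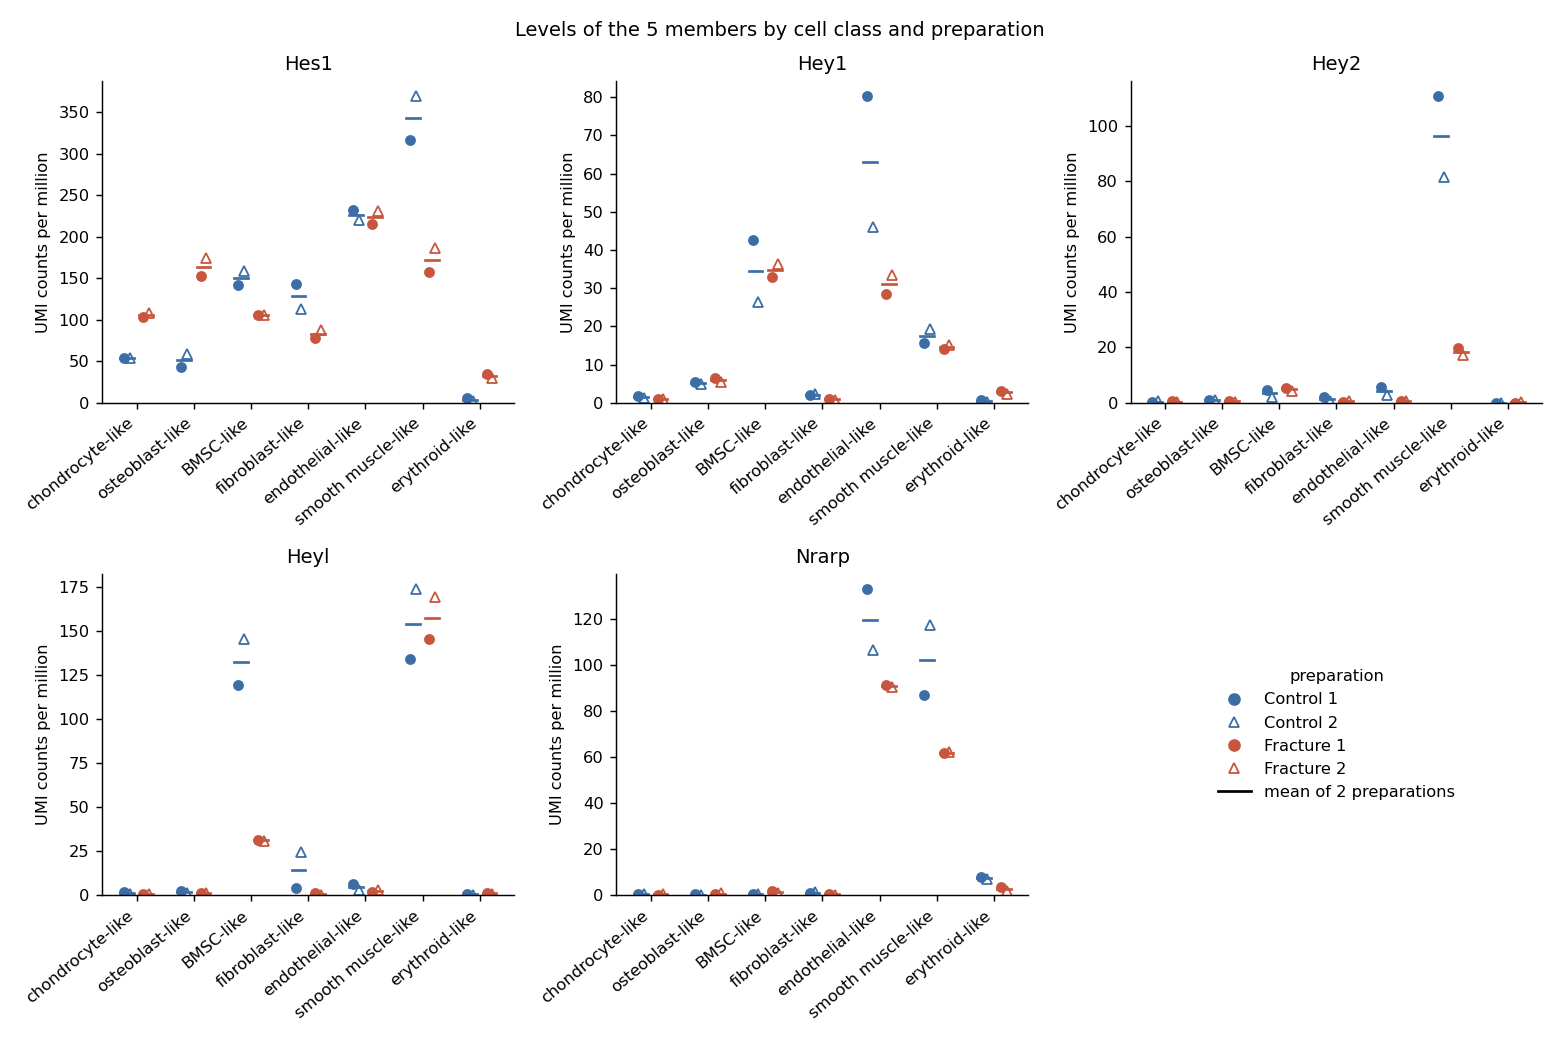
Plain CPM (vertical axis) of each member in 6 cell classes and in erythroid-like cells, the free RNA gauge, for Control and Fracture; filled circles are preparation 1, open triangles preparation 2 and lines the mean. Hey2 in smooth muscle-like cells sat at 111 and 81.7 CPM in Control and at 19.8 and 17.2 CPM in Fracture, and Heyl in BMSC-like cells at 119 and 146 CPM against 31.7 and 30.9 CPM.

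The classes differed in size between groups, and the shares of each transcript's UMIs held by the classes shifted too. BMSC-like cells gave 78.4% of the Control Heyl UMIs and 48.3% of those in Fracture, where smooth muscle-like cells, 1.29% of the cells, gave 32.1%. Smooth muscle-like cells held 63.1% of the Hey2 UMIs in Control and 18.5% in Fracture. Endothelial-like cells carried 65.3% of the Nrarp UMIs in Control and 86.4% in Fracture, while 54.7% of the Hes1 UMIs in Fracture lay in chondrocyte-like cells, which were 56.2% of the cells there. In all cells together Heyl measured 19.9 and 23.0 plain CPM in Control and 4.61 and 4.64 plain CPM in Fracture. In such sums fewer cells of a type and less RNA per cell cannot be told apart.

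Hes1, the most widely detected member and a repressor that oscillates in many progenitors, rose in osteoblast-like and chondrocyte-like cells and fell in smooth muscle-like and BMSC-like cells. In osteoblast-like cells its normalised CPM was 43.1 and 61.9 in Control and 147 and 174 in Fracture. The groups did not overlap, and the difference was a 3.06-fold rise (log2 fold change 1.61 ± 0.20 SE, adjusted p = 0.0138), in a comparison where 15.9% of genes were called and 9.41% were called higher. In chondrocyte-like cells, where 37.2% of genes were called and 19.1% called higher, Hes1 was 50.8 and 51.6 in Control and 108 and 114 in Fracture, again without overlap, a 2.17-fold rise (log2 fold change 1.12 ± 0.06, adjusted p = 0.00161). The chondrocyte-like clusters were filled unequally, and the one led by Col10a1 and Ihh held 387 of 2072 and 164 of 680 cells in Control but 2698 of 6777 and 2759 of 7087 cells in Fracture. The part of this in the rise was not tested. Clustering without integration gave a log2 fold change of 1.10 for the class. There the groups lay mostly in different clusters. The larger held 230 and 78 Control and 5626 and 5894 Fracture cells, and the other 1758 and 565 against 1282 and 1353. Both rises have to be read beside the free RNA gauge, since Hes1 in erythroid-like cells was 4.83 and 1.87 normalised CPM in Control and 38.1 and 34.0 in Fracture (log2 fold change 3.56 ± 0.51, adjusted p = 0.0294, 10.9% of genes called, 9.61% higher). Other blood cells showed more Hes1 too, with plain CPM of 9.80 and 4.67 in Control and 21.1 and 24.8 in Fracture in granulocyte-like cells. Megakaryocyte-like cells gave 4.05 and 8.79 against 54.5 and 45.8 plain CPM, on 26 UMIs in Fracture. The part of free RNA in the osteoblast-like and chondrocyte-like rises was not tested.

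Other measures were taken beside Hes1 in these classes. In osteoblast-like cells the 11 immediate early genes, which respond within minutes to stress and tissue handling, summed to 1819 and 1798 CPM in Control and 6359.9 and 5929 CPM in Fracture, and 11 of 11 were above both Control values. Their own 9 markers summed to 107382 and 124587 CPM in Control and 46385 and 59679 CPM in Fracture, and the 9 chondrocyte markers to 3292 and 2756 CPM against 2284 and 2190.3 CPM. In chondrocyte-like cells the immediate early genes overlapped between groups, at 8644 and 6934 CPM in Control and 8008 and 7692 CPM in Fracture. The part of these measures in the osteoblast-like rise was not tested. Leaving out either Fracture preparation ended the osteoblast-like call (adjusted p = 0.146 without Fracture 1 and 0.147 without Fracture 2) while the log2 fold change stayed between 1.37 and 1.89 over all alternatives.

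In smooth muscle-like cells Hes1 went the other way. It was 319 and 372 normalised CPM in Control and 159 and 192 in Fracture, without overlap, a 1.97-fold fall (log2 fold change -0.97 ± 0.16, adjusted p = 0.0101), in a comparison where 29.9% of genes were called and 14.4% called lower. Without Fracture 1 the adjusted p was 0.0754. In BMSC-like cells, where 51.2% of genes were called and 25.9% called lower, Hes1 was 132 and 149 in Control and 113 and 114 in Fracture (log2 fold change -0.31 ± 0.09, adjusted p = 0.0413), a small fall whose call held in 9 of 14 alternatives and was lost with RLE factors (0.0528), with DESeq2 (0.0947), without Fracture 1 (0.207), without Fracture 2 (0.179) and when the libraries were clustered without integration (log2 fold change -0.06). Fibroblast-like cells gave 143 and 109 in Control and 80.3 and 91.1 in Fracture, which did not pass (log2 fold change -0.56 ± 0.17, adjusted p = 0.0833). Endothelial-like cells held 221 and 214 in Control and 223 and 243 in Fracture (log2 fold change 0.10 ± 0.07, adjusted p = 0.342). The order of classes changed accordingly, and in Fracture the plain CPM of Hes1 was 223 in endothelial-like, 172 in smooth muscle-like and 164 in osteoblast-like cells, the latter a pair that overlapped, while chondrocyte-like and BMSC-like cells overlapped at 105 each and fibroblast-like cells lay at 83.1.

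Hey2, a repressor expressed in developing arteries and smooth muscle, was lower in Fracture in both vascular classes. In smooth muscle-like cells it was 112 and 82.4 normalised CPM in Control and 19.99 and 17.7 in Fracture. Both Fracture values lay far under both Control values, and the fall was 5.17-fold (log2 fold change -2.37 ± 0.22, adjusted p = 0.00244). It rested on 460 Hey2 UMIs in Control and 53 in Fracture, kept its call in 15 of 15 alternatives and ranged there from -2.58 to -2.10. In endothelial-like cells, where 33.9% of genes were called and 16.0% were called lower, Hey2 was 5.50 and 2.86 in Control and 0.647 and 0.769 in Fracture (log2 fold change -2.54 ± 0.46, adjusted p = 0.0207). This second fall rested on 77 UMIs in Control and 17 in Fracture, and the call was lost without Fracture 1 (0.162) or Fracture 2 (0.140). Arterial-like cells, the endothelial subtype with the highest Hey2 and 61 Hey2 UMIs in Control, numbered 464 and 272 in Control and 103 and 136 in Fracture. The 9 chondrocyte markers in endothelial-like cells summed to 2223 and 1013 CPM in Control and 15518 and 15508 CPM in Fracture, 9 of 9 above both Control values. The part of either shift in the fall was not tested. Control 1, which had the higher endothelial-like Hey2 level, also carried more vascular smooth muscle markers in these cells, with a sum of 327 CPM against 25.1 CPM in Control 2 and 67.9 and 61.5 CPM in Fracture, and their part in the result was not tested. The chondrocyte-like, osteoblast-like and erythroid-like clusters found among the vascular cells were then removed. The log2 fold changes were -2.43 in smooth muscle-like and -2.32 in endothelial-like cells, and both stayed called. Cells with smooth muscle markers were kept, so these values do not bear on the smooth muscle markers in Control 1.

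The smooth muscle-like class itself changed between the groups. Its 8 markers summed to 30327 and 29907 CPM in Control and 17299.8 and 18776 CPM in Fracture, the share of cells with Top2a or Mki67 was 2.5% and 2.0% against 15.8% and 13.9%, and the chondrocyte markers were at 668 and 149 CPM against 12426 and 8208 CPM, with 9 of 9 above both Control values. Such changes beside Hey2, Hes1 and Nrarp were measured, and their part in those falls was not tested. The 6751 smooth muscle-like and endothelial-like cells were therefore clustered again together. This gave vascular smooth muscle-like cells, which wrap larger vessels, pericyte-like cells, which cover capillaries, and the endothelial subtypes. Clusters of 511 chondrocyte-like, 277 cycling, 113 osteoblast-like and 73 erythroid-like cells came out as well and were left out of the subtypes. Control held 549 and 144 vascular smooth muscle-like cells and Fracture 40 and 47, whereas pericyte-like cells numbered 120 and 60 against 112 and 105.

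Hey2 was lower in Fracture in both mural subtypes, as the plot by vascular subtype shows. In pericyte-like cells, where 16.1% of genes were called and 7.67% called lower, it was 61.4 and 81.3 normalised CPM in Control and 14.5 and 11.05 in Fracture, a 5.40-fold fall (log2 fold change -2.43 ± 0.33, adjusted p = 0.00441). In vascular smooth muscle-like cells, where 13.2% were called and 5.86% called lower, it was 132 and 89.3 against 36.0 and 39.9, a 2.93-fold fall (log2 fold change -1.55 ± 0.28, adjusted p = 0.0291). Neither pair of groups overlapped. The pericyte-like call held in 13 of 14 alternatives and was lost with no filter on low counts (0.0552). The vascular smooth muscle-like call held in 10 of 14 and was lost at resolution 0.6 (0.0778), without Fracture 1 (0.0842), without Fracture 2 (0.0811) and with the replicate number as a block (0.0804), and the Fracture side rested on 26 UMIs. Beside this fall, the subtype's own 6 markers summed to 28259 and 23838 CPM in Control and 17583 and 19690 CPM in Fracture, with 3 of them, among which Myh11 at 4981 and 4599 CPM against 1382 and 2004 CPM, under both Control values and 2, Actg2 and Des, above them. All 6 pericyte markers were above both Control values, with Rgs5 at 2981 and 6585 CPM against 9717 and 7693 CPM. The part of these shifts was not tested. Without integration 7 and 15 Fracture cells were left in this subtype, too few for a test. Arterial-like cells gave 19.1 and 9.48 in Control and 3.12 and 5.14 in Fracture, which was not called (log2 fold change -1.76 ± 0.53, adjusted p = 0.105, 6.99% of genes called).

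**Figure D2:**
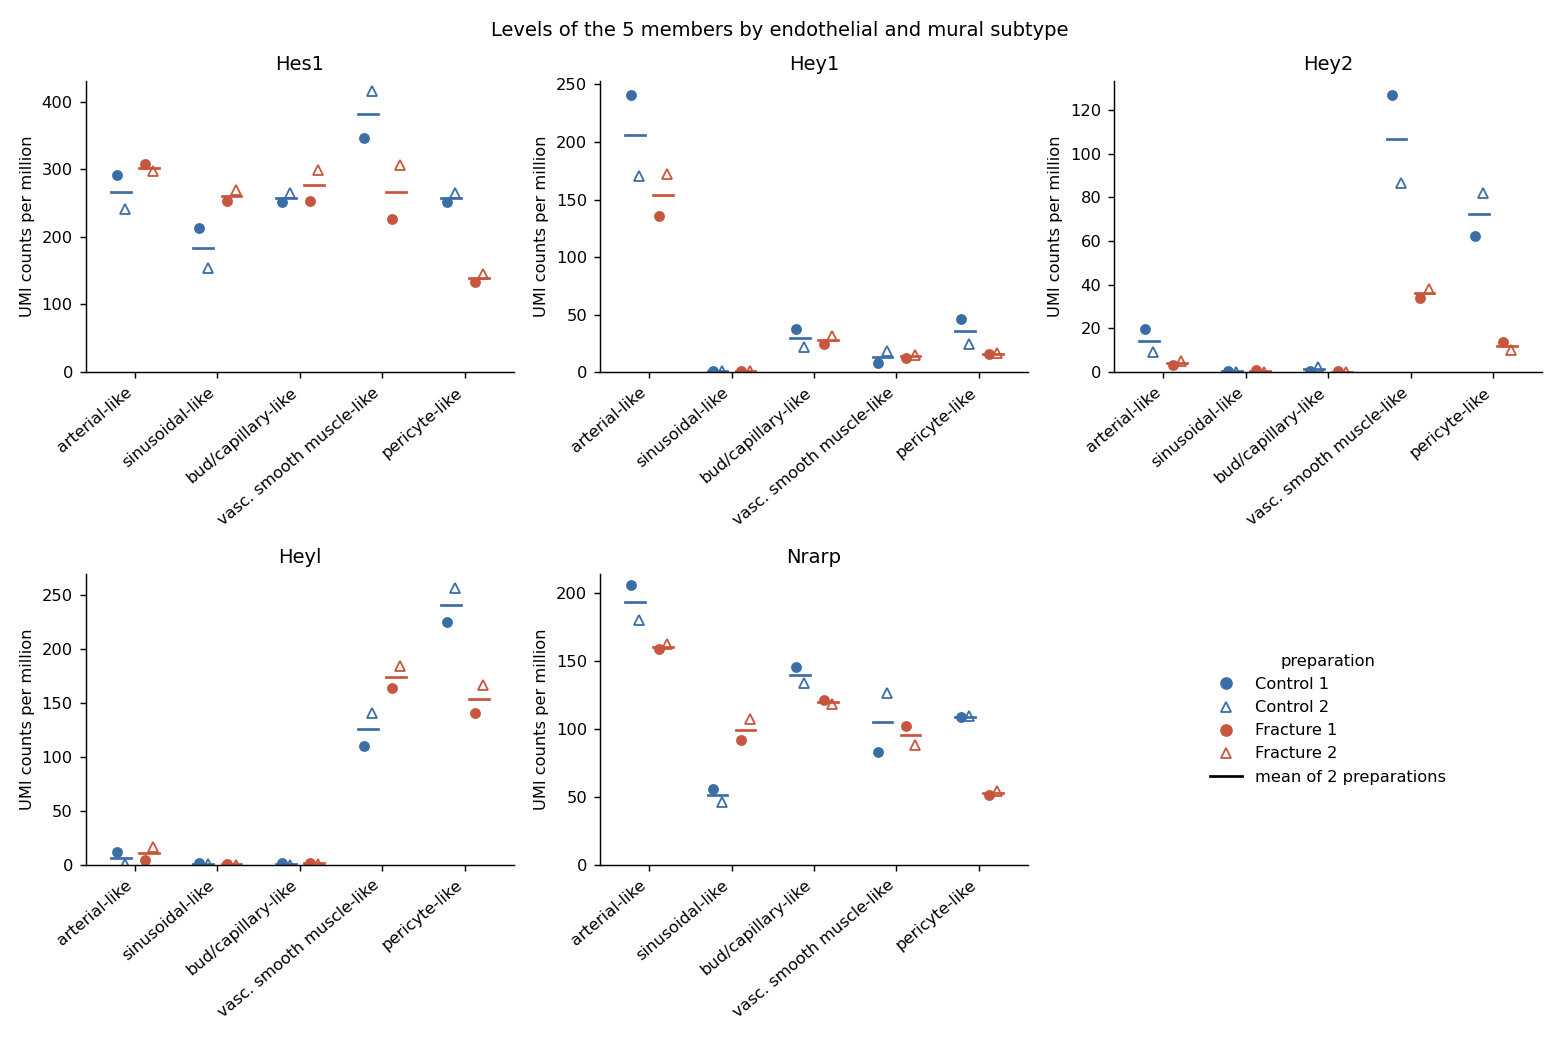
Plain CPM (vertical axis) of each member in 5 endothelial and mural subtypes for Control and Fracture; filled circles are preparation 1, open triangles preparation 2 and lines the mean. Hey1 was concentrated in arterial-like cells, at 241 and 170.5 CPM in Control, and lay near 0 in sinusoidal-like cells, while Nrarp in sinusoidal-like cells sat at 55.8 and 46.4 CPM in Control and 91.5 and 107 CPM in Fracture.

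In pericyte-like cells 3 of the 5 members were called, each of them lower, beside 16.1% of all genes called and 7.67% called lower. Hes1 there was 247 and 263 normalised CPM in Control and 139.8 and 157 in Fracture (log2 fold change -0.78 ± 0.17, adjusted p = 0.0203), and Nrarp was 107 and 108 against 53.7 and 58.5 (log2 fold change -0.94 ± 0.20, adjusted p = 0.0190). Each call held in 9 of 14 alternatives, and both were lost with no filter on low counts (0.112 and 0.0970), with DESeq2 (0.0549 and 0.158), with the replicate block (0.0515 for Hes1 and 0.0581 for Nrarp), without Fracture 1 (0.166 and 0.152) and without Fracture 2 (0.0888 and 0.115). Heyl was 222 and 255 against 148 and 180.0 (adjusted p = 0.0881) and Hey1 was 45.7 and 24.4 against 16.8 and 17.7 (adjusted p = 0.0969), and neither was called. The 6 pericyte markers were lower beside these members, with sums of 30537 and 29214 CPM in Control and 10319 and 10393 CPM in Fracture, 5 of 6 under both Control values, and the part of that shift was not tested. In vascular smooth muscle-like cells Hes1 was 359 and 430.4 against 239 and 322 (adjusted p = 0.195) and Nrarp 86.1 and 131 against 108 and 93.1, with overlap (adjusted p = 0.854).

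Heyl, a Hey family repressor found in vascular mural cells, fell in marrow stroma. In BMSC-like cells it was 111 and 137 normalised CPM in Control and 33.9 and 33.5 in Fracture. The groups were far apart, and the fall was 3.66-fold (log2 fold change -1.87 ± 0.13, adjusted p = 0.00178), called in 14 of 14 alternatives with log2 fold changes from -2.08 to -1.09. The smallest of these, -1.09, came from clustering without integration. The make-up of the stroma differed between groups, with 1706 and 1237 dpMSC-like and 911 and 506 mpMSC-like cells in Control against 389 and 432 and 534 and 559 in Fracture. Heyl in Control was 179 and 189 plain CPM in dpMSC-like but 51.5 and 57.8 plain CPM in mpMSC-like cells. The part of this shift in the BMSC-like fall was not tested. In smooth muscle-like cells, by contrast, Heyl was 136 and 175 in Control and 147 and 174 in Fracture, which overlapped (log2 fold change 0.05 ± 0.18, adjusted p = 0.847). Within the mural subtypes the values were 114 and 146 against 174 and 194 in vascular smooth muscle-like cells (adjusted p = 0.147), and the pericyte-like values given above. Heyl in fibroblast-like cells rested on Control 2, with 4.16 and 23.6 in Control and 1.44 and 0.523 in Fracture, and did not pass (adjusted p = 0.0718). None of the 3 members tested in fibroblast-like cells was called by edgeR, where 17% of genes were, although Hes1 and Heyl had unadjusted p-values of 0.0211 and 0.0164 and DESeq2 called Heyl.

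The stromal cells, 14686 fibroblast-like, BMSC-like and osteoblast-like cells in all, were next clustered again together, which gave dpMSC-like and mpMSC-like cells, the study's names for diaphyseal and metaphyseal mesenchymal stromal cells. Septoclast-like cells, a stromal type that resorbs cartilage, came from a finer clustering of the same cells. The dpMSC-like name holds less well in Fracture, where its 5 markers Esm1, Adipoq, Lepr, Cxcl12 and Kitl summed to 2407 and 3097 CPM against 42000 and 36756 CPM in Control, all 5 under both Control values. Of the 5 mpMSC markers 3 were higher in the same Fracture cells, with Slc20a2 at 28.2 and 25.4 CPM against 10.8 and 12.5 CPM in Control, Postn at 2146 and 1981 CPM against 10.2 and 1.88 CPM in Control and Mmp13 at 3929 and 4336 CPM against 519 and 707 CPM. The other 2 were lower, Kcnk2 at 38.5 and 44.8 CPM against 53.5 and 64.1 CPM and A2m at 4.43 and 8.67 CPM against 49.7 and 68.8 CPM. Whether the cluster holds the same population in both groups was not tested. Without integration only 18 and 30 Fracture cells fell into that cluster, against 389 and 432 with integration, so that no test was made there. With these limits, Heyl in dpMSC-like cells was 164 and 176 normalised CPM in Control and 17.4 and 16.5 in Fracture, a 10.0-fold fall (log2 fold change -3.33 ± 0.10, adjusted p = 0.000283), in a comparison where 54.0% of genes were called and 26.6% called lower. Hes1 fell there as well, from 172 and 169.6 to 86.6 and 94.8 (log2 fold change -0.91 ± 0.09, adjusted p = 0.00145). Hey1 was 10.8 and 8.65 against 7.30 and 8.15 and was not called (adjusted p = 0.242).

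In mpMSC-like cells the Heyl values of the groups overlapped. Its normalised CPM was 48.8 and 55.5 in Control and 50.4 and 50.8 in Fracture (log2 fold change -0.04 ± 0.10, adjusted p = 0.780, 29.1% of genes called, 15.5% higher). The difference was close to 0, although the 5 dpMSC markers in the same cells stood at 6712 and 7266 CPM in Control and 1235 and 1241 CPM in Fracture. Of their own 5 markers 4 were under both Control values, with Kcnk2 at 480 and 665 CPM in Control against 161 and 207 CPM, A2m at 447 and 742 CPM against 47.7 and 64.2 CPM, Postn at 1043 and 826 CPM against 777 and 762 CPM and Slc20a2 at 164 and 178 CPM against 131 and 127 CPM. Mmp13 stood at 5485 and 5444 CPM against 6143 and 5808 CPM. Hes1 was 79.2 and 104 in Control and 134 and 128 in Fracture (log2 fold change 0.51 ± 0.14, adjusted p = 0.0485), a rise near the threshold that held in only 5 of 14 alternatives, being lost among others without Fracture 1 (0.205), without Fracture 2 (0.163), without integration (0.0719) and with the replicate block (0.0634). The single libraries overlapped, with plain CPM up to 112 in Control and down to 102 in Fracture. All 11 immediate early genes were above both Control values in these cells, with sums of 2134 and 1446 CPM against 3947 and 3661 CPM, and their part was not tested. Hes1 in the erythroid-like gauge was 4.83 and 1.87 normalised CPM in Control and 38.1 and 34.0 in Fracture. The part of free RNA in the mpMSC-like rise was not tested. In septoclast-like cells no member was called by edgeR, where 9.01% of genes were, and Heyl was 54.4 and 79.4 in Control and 42.8 and 56.8 in Fracture.

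**Figure D3:**
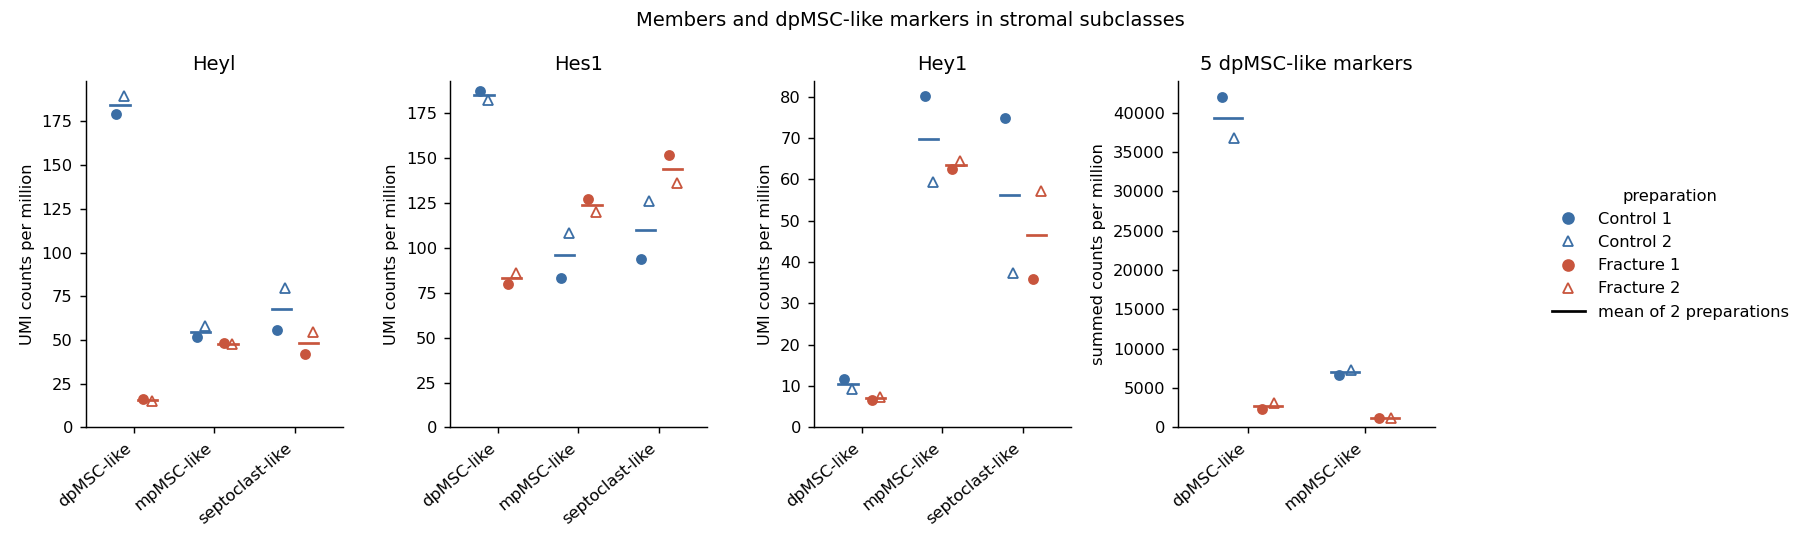
Plain CPM (vertical axis) of Heyl, Hes1 and Hey1 in dpMSC-like, mpMSC-like and septoclast-like cells, and the summed CPM of the 5 dpMSC markers in the first 2 of these, for Control and Fracture; filled circles are preparation 1, open triangles preparation 2 and lines the mean. Heyl in dpMSC-like cells sat at 179 and 189 CPM in Control and 16.1 and 15.0 CPM in Fracture, while in mpMSC-like cells it stayed between 47.6 and 57.8 CPM.

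Hey1, a repressor induced in endothelium and in early osteogenic cells, was not called in any of the 6 classes. In endothelial-like cells it was 76.5 and 44.7 normalised CPM in Control and 29.6 and 35.1 in Fracture, without overlap (log2 fold change -0.91 ± 0.28, adjusted p = 0.0693). DESeq2 called this difference (0.00761). Within arterial-like cells, the subtype with the highest Hey1, it was 235 and 172 in Control and 138 and 179 in Fracture, which overlapped (adjusted p = 0.308), and within bud or capillary-like cells 36.3 and 21.4 against 25.3 and 33.5 (adjusted p = 0.959, 25.5% of genes called). In BMSC-like cells Hey1 was 39.5 and 24.8 in Control and 35.2 and 39.5 in Fracture (adjusted p = 0.491), and it lay mostly in mpMSC-like cells, at 76.0 and 57.1 against 65.5 and 68.6 (adjusted p = 0.970). Its plain CPM in Fracture was 34.6 ± 2.51 in BMSC-like and 31.0 ± 3.43 in endothelial-like cells, which overlapped.

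Nrarp, the feedback inhibitor, took different courses in vascular subtypes. In sinusoidal-like cells, the lining of the marrow's wide venous channels, it was 54.8 and 47.0 normalised CPM in Control and 93.4 and 111 in Fracture. The groups did not overlap, and the rise was 2.02-fold (log2 fold change 1.01 ± 0.15, adjusted p = 0.00812), in a comparison where 17.7% of genes were called and 9.85% called higher. Leaving out Fracture 1 (0.0759) or Fracture 2 (0.104) ended the call, and over all alternatives the log2 fold change lay between 0.83 and 1.13. Hes1 rose in the same cells, from 209.6 and 157 to 258 and 278 (log2 fold change 0.55 ± 0.15, adjusted p = 0.0493), and this call held in only 5 of 14 alternatives. The 6 sinusoidal markers summed to 11819 and 11196 CPM in Control and 3913 and 3822 CPM in Fracture, all 6 lower, while the 8 endothelial markers overlapped at 9148 and 8542 CPM against 9164 and 9029.5 CPM. The part of the marker shift in the 2 rises was not tested, nor was that of free RNA, in whose gauge Hes1 rose as well. Without integration 7 and 8 Fracture cells fell into the sinusoidal-like cluster, against 152 and 182 with it, so both rises rest on the integrated clusters.

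No rise of Nrarp was called in the other vascular cells tested. In smooth muscle-like cells it was 87.4 and 118 in Control and 62.1 and 63.8 in Fracture (log2 fold change -0.70 ± 0.19, adjusted p = 0.0395), a fall that held in 8 of 15 alternatives, being lost among others with DESeq2 (0.0770), without Control 2 (0.0525), without Fracture 1 (0.172) and without Fracture 2 (0.153), and the single libraries overlapped. Endothelial-like cells as a whole gave 127 and 103 against 94.4 and 94.9 (adjusted p = 0.128), arterial-like cells 201 and 182 against 162 and 169 (adjusted p = 0.285), and bud or capillary-like cells 141 and 131 against 125 and 124 (adjusted p = 0.356). An unnamed vascular cluster led by Ccl21a, Fmo2 and C1qtnf9 gave 99.7 and 48.5 against 84.7 and 57.8, and no member was called there by edgeR, where 9.99% of genes were.

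Whether the effect of the fracture differed between classes was tested directly, with endothelial-like cells as the reference and with preparations as blocks. Of 25 differences, 9 were called. The Hes1 effect was higher than in endothelial-like cells in chondrocyte-like cells (difference of log2 fold changes 1.06 ± 0.08, adjusted p = 0.000296, 36.4% of genes called) and in osteoblast-like cells (1.58 ± 0.15, adjusted p = 6.93e-05, 26.6% called). It was lower in smooth muscle-like cells (-1.07 ± 0.15, adjusted p = 0.00197, 11.1% called) and in fibroblast-like cells (-0.59 ± 0.15, adjusted p = 0.0365, 14.1% called), where the call held in 6 of 9 alternatives and was lost without Control 1 (-0.35, adjusted p = 0.0669), without Fracture 1 (0.353) and without Fracture 2 (0.269). Hey1 differed in BMSC-like cells (1.15 ± 0.11, adjusted p = 0.00112, 24.3% called), and Hey2 in BMSC-like (3.29 ± 0.38) and chondrocyte-like cells (2.93 ± 0.61), both at low counts outside the vessels. The Hey1 log2 fold change was 0.22 in BMSC-like and -0.91 in endothelial-like cells. Among the latter, arterial-like cells, highest in Hey1, numbered 464 and 272 in Control and 103 and 136 in Fracture. The part of this shift was not tested. The chondrocyte-like Hey2 difference lost its call without Control 1 (0.0670) and without Fracture 1 (0.0786). The Hey2 effects in smooth muscle-like and endothelial-like cells differed by 0.15 ± 0.35 (adjusted p = 0.848). Between the stromal subclasses the effect was higher in mpMSC-like than in dpMSC-like cells for Heyl by 3.29 ± 0.14 and for Hes1 by 1.44 ± 0.14, where 28.4% of genes were called.

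**Figure D4:**
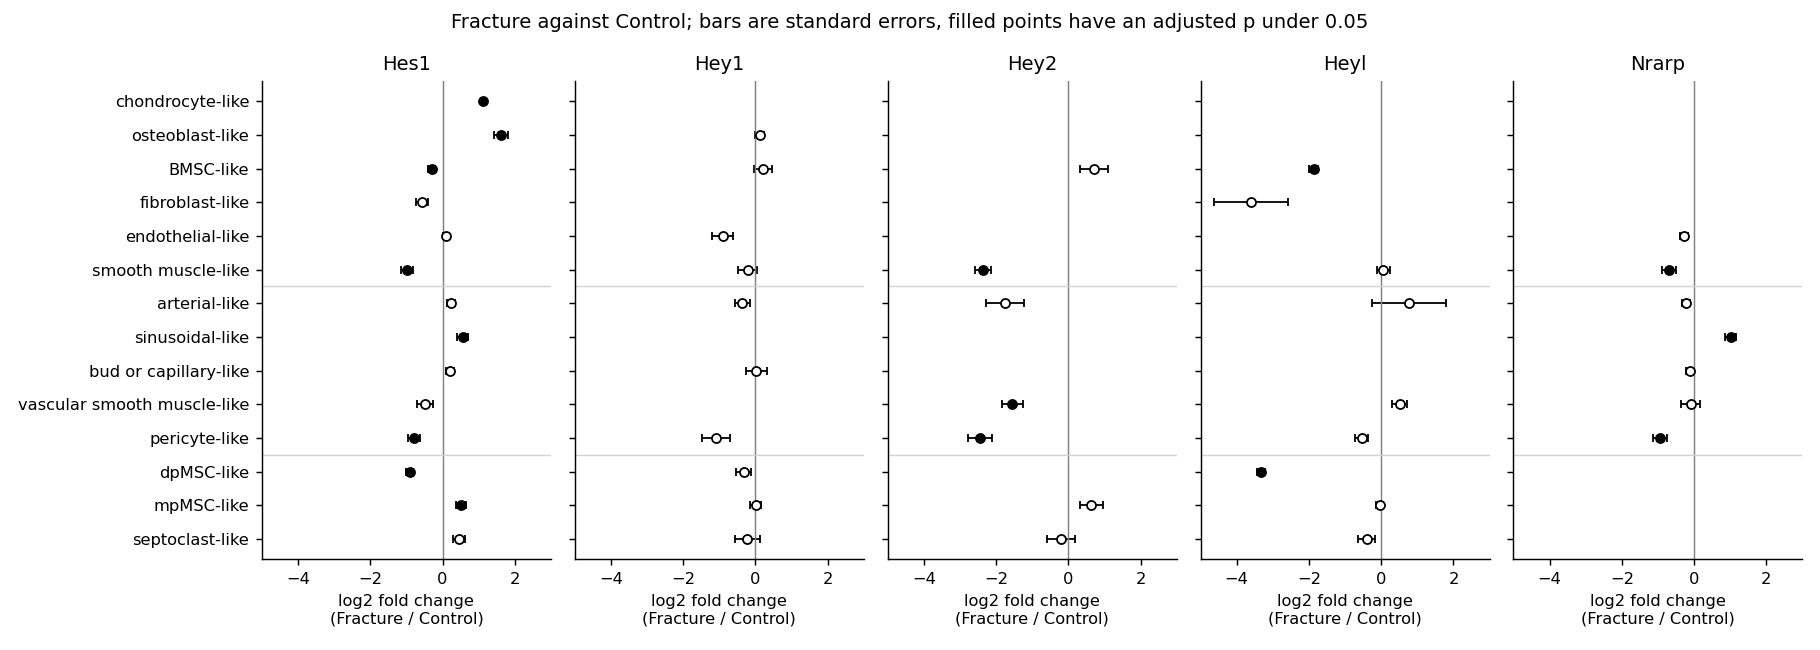
Log2 fold change of Fracture against Control (horizontal axis) with its standard error for each member, by class and subtype, shown where the member was tested and 1 group averaged at least 5 CPM; filled symbols were called at an adjusted p under 0.05. Hes1 lies at 1.61 in osteoblast-like and -0.97 in smooth muscle-like cells, Hey2 at or under -1.55 in every mural group, and Heyl between -3.61 in fibroblast-like and 0.76 in arterial-like cells, neither of which was called, with the called fall of -3.33 in dpMSC-like cells.

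Shares of cells with at least 1 UMI were compared after each cell had been thinned to 1000 UMIs, because Fracture cells were deeper in most classes. Hey2 was found in 9.76 ± 1.34% of smooth muscle-like cells in Control and 2.01 ± 0.16% in Fracture (38.6% and 14.2% without thinning), Hes1 in 25.8 ± 4.13% and 15.1 ± 0.47% (62.8% and 61.2%). Heyl was carried by 12.8 ± 1.26% of Control and 3.48 ± 0.12% of Fracture BMSC-like cells (43.2% and 18.2%), and Hes1 in 5.14 ± 1.05% and 13.5 ± 1.25% of osteoblast-like cells (41.2% and 61.6%). The same shares in erythroid-like cells, with median depths of 6338 UMIs in Control and 8114 UMIs in Fracture, were 0.390% and 2.34% for Hes1, 0 and 0.0135% for Hey2 and 0.0420% and 0.147% for Heyl. With 2 preparations against 2 an exact permutation test cannot give a two-sided p below 0.3333, so none of these differences in shares could pass.

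Of the wider Notch pathway, 60 genes in 8 lists were followed, members left out. In smooth muscle-like cells 44 were tested, 3 were higher and 9 lower in Fracture, with a median log2 fold change of -0.37 against -0.02 over all genes. The share called, 27.3% of those tested, was near the 29.9% of all genes in this class. The receptor Notch3, which mural cells use, was 1162 and 1383 normalised CPM in Control and 502 and 619 in Fracture (log2 fold change -1.18 ± 0.18, adjusted p = 0.00735), and its ligand Jag1 was 540.1 and 653 against 278 and 331 (log2 fold change -0.97 ± 0.17, adjusted p = 0.0113). Among the 3 higher genes was Dlk1, a non-canonical ligand, at 3.11 and 4.90 against 173 and 167. Vascular smooth muscle-like cells numbered 549 and 144 in Control and 40 and 47 in Fracture. Of 2 ligands tested there, 0 were called lower and 1 higher, and 2 of 2 receptors were lower (5.86% of all genes lower). In pericyte-like cells 1 ligand was lower and 1 higher, and 2 of 3 receptors were lower (7.67%). The part of the change in mural subtypes in the class values was not tested. In BMSC-like cells 50 were tested, 8 higher and 18 lower, which is 52.0% of those tested against 51.2% of all genes there. Among them were Notch3 at 153 and 133 against 31.2 and 36.6 (log2 fold change -2.08 ± 0.13, adjusted p = 0.00161) and Rbpj, the gene of the DNA-binding partner, at 72.2 and 101 against 35.1 and 35.2 (log2 fold change -1.30 ± 0.18, adjusted p = 0.00580). Notch3 was also lower in mpMSC-like cells (log2 fold change -1.07 ± 0.12, adjusted p = 0.00500), where Heyl was not.

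In endothelial-like cells 54 of the 60 were tested, 5 higher and 17 lower (40.7% of those tested against 33.9% of all genes). The receptors Notch4 (log2 fold change -0.72 ± 0.07) and Notch1 (-0.63 ± 0.11) and the ligands Jag2 (-1.17 ± 0.14) and Dll1 (-1.05 ± 0.19) were among the lower genes. Of the 6 ligands tested, 4 were called lower and 2 higher, where 16.0% and 17.9% of all genes were. Within arterial-like cells, fewer in Fracture, neither Notch4 nor Notch1 was called. Jag2 (-0.57 ± 0.10) and Dll1 (-1.60 ± 0.15) were lower there. In bud or capillary-like cells 1 of the 4 receptors was called lower and 0 higher. The part of the change in subtypes in the class values was not tested. Sinusoidal-like cells, in which Nrarp and Hes1 rose, had 1 pathway gene higher and 6 lower of 45 tested (15.6% against 17.7%), including Notch2 at 41.9 and 35.1 against 11.8 and 17.2 and the ligand Dll4 at 72.9 and 74.9 against 55.3 and 48.9. Chondrocyte-like cells had 13 higher and 14 lower of 56 (48.2% against 37.2% of all genes), osteoblast-like cells 6 and 2 of 49 (16.3% against 15.9%), and fibroblast-like cells 2 and 3 of 47 (10.6% against 17%). Among the related repressors, Bhlhe40, which responds to hypoxia and other stimuli, was higher in 5 of the 6 classes. It was 13.2 and 15.1 in Control and 76.8 and 70.3 in Fracture in osteoblast-like cells (log2 fold change 2.38 ± 0.11) and 8.08 and 5.71 against 79.2 and 58.1 in smooth muscle-like cells (log2 fold change 3.24 ± 0.29), and it stood at 1.10 and 0.398 against 38.6 and 42.5 in the erythroid-like gauge.

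The genes most alike each member were taken over 24 points, 6 classes by 4 preparations, among 6588 genes with a mean of at least 20 CPM. The points share libraries and classes, so the correlations only describe which genes are found in the same cells. Hey2 was most like Rbpms2, Kcnab1 and Lmod1 (Pearson r = 0.961, 0.948 and 0.944), Heyl most like Notch3 (0.955) with Tusc5 and 1500009L16Rik, and Nrarp most like Esam, Gja4 and Mcam (0.986, 0.985 and 0.980). Hey1 had Cdc42ep1, Ctnnd1 and Frmd4a (0.953, 0.940 and 0.935), and Hes1 had lower values with Mtor, 5730508B09Rik and Plekhg2 (0.873, 0.870 and 0.859). Among the members themselves the highest value was that of Hey2 and Heyl (0.805) and the lowest that of Heyl and Nrarp (0.387).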

How the data were processed

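Cells of 4 preparations, 2 per group, were measured by droplet sequencing of transcript 3′ ends with the 10x Chromium kit, each preparation in 2 libraries. The authors deposited 1 table per library of UMI counts per gene and cell, which are raw counts. Per the submitters' processing notes, reads were handled with bcl2fastq 2.19.1.403, UMI-tools 1.0.0, STAR 2.7.3a and featureCounts 1.6.4 on build mm10. The study's methods name fastp, STARsolo and EmptyDrops instead, and which path made these tables was not settled. The Control tables reach down to barcodes of 1 UMI in 3 of 4 libraries and of 3 UMIs in the other, whereas the smallest barcodes of the Fracture tables hold 1929 to 2724 UMIs, so depth per cell was compared under unequal cuts.

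From these counts, cells with 500 to 6000 genes and at most 25% mitochondrial UMIs were kept, integrated and clustered with Seurat 5.3.0 (resolution 0.1, and 0.3, 0.08 and 0.5 for vascular, stromal and septoclast-like subtypes), with the members, 60 other Notch pathway genes and cell-cycle genes left out of the clustering genes. A cluster was named from at least 3 markers, by a rule settled after the clusters had been seen. The members and gene lists were chosen with earlier results of these data known. Doublets marked by scrublet in scanpy 1.11.5, 718 of 45328 cells (1.58%), were kept. Under 0.5% of cells were marked in 3 libraries, against 6% expected, so doublets may have been missed there. Whether the caller worked in them was not tested.

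Counts were summed per preparation and class (at least 20 cells each) and tested with edgeR 4.0.16 (quasi-likelihood, TMM factors, low counts filtered by filterByExpr), with Benjamini-Hochberg adjustment over all genes of a class. Differences between classes were tested as a class by group term with preparation as a block. Normalised CPM are CPM after TMM scaling, and SE is that of the fitted log2 fold change. All 5 members are named in every class, and of each pathway list at most 4 called genes per class, those with the largest absolute log2 fold change. Alternatives were DESeq2 1.42.0, other scaling factors, no filter, other resolutions, no integration, at least 3000 UMIs per cell, doublets removed, the replicate number as a block and leaving out each preparation. Removing the top 6% of doublet scores and removing vascular cells in clusters with markers of a class outside the vessels were chosen after seeing the data. Same-numbered preparations deviated together with r between 0.00422 and 0.0650 over all genes tested. Since each deviation also holds counting error, this cannot tell whether they were handled together. They were not paired in the main tests.

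The edgeR step was tested on simulated data with 2-fold and 4-fold changes planted in the counts of each class. It recovered 7.14% to 39.2% of the 2-fold and 84.8% to 94.9% of the 4-fold changes, with 1.98% to 5.88% of calls false. Changes were planted in far fewer genes than were called in the real classes, and the spread followed a trend over genes. Since the adjustment depends on the share of changed genes, these values do not measure the power of the real tests. UMIs count molecules captured in these libraries. The SD of a share of cells is that between 2 preparations, and it holds counting error as well as differences between preparations. Sequences came from RefSeq tables of GRCm38.p6 and gene positions from GENCODE on GRCm38; other steps used R 4.3.3, Matrix 1.6.5, limma 3.58.1, python 3.11.15, numpy 2.4.6, pandas 2.3.3 and scipy 1.17.1.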

Additional observations from a re-analysis of the deposited data

Results flagged for a closer look

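A total of 11 differences of the fracture effect between classes passed the test of the difference itself. They are given here as the second class minus the first on the log2 scale, with adjusted p-values from edgeR. Of all genes tested against endothelial-like cells, 36.4% were called in chondrocyte-like, 26.6% in osteoblast-like and 24.3% in BMSC-like cells. The share was 14.1% in fibroblast-like and 11.1% in smooth muscle-like cells, and 28.4% between mpMSC-like and dpMSC-like cells. Against endothelial-like cells, Hes1 differed by 1.06 (0.000296) in chondrocyte-like, 1.58 (6.93e-05) in osteoblast-like, -0.59 (0.0365) in fibroblast-like and -1.07 (0.00197) in smooth muscle-like cells. Hey1 differed by 1.08 (0.00690) in osteoblast-like and 1.15 (0.00112) in BMSC-like cells, although Hey1 itself was not called in either. Nor was it called in endothelial-like cells, among which arterial-like cells were fewer in Fracture. Hey2 differed by 2.93 (0.0115) in chondrocyte-like and 3.29 (0.00185) in BMSC-like cells, where its level was at most 0.497 and 5.69 normalised CPM. Nrarp differed by 1.41 (0.0357) in osteoblast-like cells, at no more than 0.854 normalised CPM there, and this call was lost without Control 2 (0.0642) and without Fracture 2 (0.290). Between mpMSC-like and dpMSC-like cells the difference was 1.44 (1.2e-06) for Hes1 and 3.29 (3e-10) for Heyl. All these comparisons share their endothelial-like or dpMSC-like values. Groups of 2 preparations are too small for a check of single outlying samples.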

How the results depend on the processing

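The values followed were those of 27 pairs of a member with a class or subtype and of the 11 called differences between classes. A pair was followed if it was called, or reached 5 CPM in 1 group and an absolute log2 fold change of 0.5. Smaller effects were not followed. Under the alternatives 394 values kept direction and call, 61 lost the call, 20 gained one and 3 changed sign. The changes of sign were Heyl in fibroblast-like cells without integration (log2 fold change 0.19) and Heyl in arterial-like cells without Control 2 (-0.0021) or without Fracture 2 (-0.65), none of them called, while without Control 1 the latter was 4.10 and called. The number of members called moved from 2 to 1 in BMSC-like cells with RLE factors and with DESeq2, from 1 to 3 in chondrocyte-like cells without the highest doublet scores, from 1 to 2 in endothelial-like cells with no filter and with DESeq2, and from 0 to 1 in fibroblast-like cells with no filter, with DESeq2 and without integration. Over the vascular subtypes 6 were called, 3 with DESeq2 and 3 with the replicate number as a block, and the block left all other counts within 1.5 times. Leaving out 1 preparation at a time gave 1 to 3 members called in chondrocyte-like, 0 to 2 in osteoblast-like, 1 to 4 in BMSC-like, 0 to 2 in fibroblast-like, 0 to 4 in endothelial-like and 1 to 3 in smooth muscle-like cells, 1 to 8 in the vascular subtypes, 2 to 6 in the stromal subclasses and 8 to 11 of the 25 differences from endothelial-like cells. In these fits the lone preparation is assumed to vary like the other group. Clustering without integration gave no complete set of vascular or stromal subtypes, and resolution 0.15 (vascular) and 0.2 (stromal) likewise gave no count over them. Vascular cells carrying markers of a class outside the vessels were also removed. The differences of Hey1 (adjusted p = 0.0537) and Nrarp (0.0823) between osteoblast-like and endothelial-like cells were then no longer called. The causes of these changes were not tested. Counts of members called under the alternatives stand without the share of all genes called in the same fits. A change in the members therefore cannot be told from a change over all genes. Depth limits Hey2 in chondrocyte-like, osteoblast-like and fibroblast-like cells and Nrarp in these and BMSC-like cells, where no class had more than 80 UMIs of the gene in either group. The same holds for Hey2 in endothelial-like cells, Hey1 in fibroblast-like and smooth muscle-like cells and Heyl in fibroblast-like cells.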
